A study of Mus musculus with 2 samples.

Results

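Bidirectional promoter noncoding RNA genes are long noncoding RNA (lncRNA) genes that the GENCODE M21 annotation places at the promoter of a protein-coding gene, transcribed away from it on the other strand. The set was selected on its reads: of the 190 genes of this annotated type, the 92 with at least 1 read in either of 2 libraries were kept (48.4%), and they stand beside 18053 of 55536 annotated genes with a read. Snhg genes, the hosts of small nucleolar RNAs, were to be left out, and 0 with reads carried this type. The read counts therefore chose the members and are given as a description.

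The libraries were made by long-read RNA sequencing of the adrenal gland of male B6CASTF1/J mice, an F1 cross of C57BL/6J and CAST/EiJ, at 4 days of age. The labels name no treatment or genotype beyond the strain, so there is 1 group with replicates 1 and 2 and no contrast between conditions. The tissue entries give 2 animals, male 03 (replicate 1) and male 04 (replicate 2), but both library entries give male 03, so whether the replicates came from separate animals cannot be told. Every comparison of the libraries below measures the spread between these 2 libraries, which may be technical.

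Many mammalian promoters start transcription in both directions. The RNA made away from the coding gene is usually short-lived and low, but some of these transcripts are spliced, polyadenylated and stable enough to be annotated as genes of their own. Because the 2 starts often lie within 1 stretch of open chromatin rich in CpG sites, the coding gene's level is the natural reference for its noncoding neighbour.

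Replicate 1 held 688436 reads in mouse genes and replicate 2 held 810818, beside 19290 and 21734 spike-in reads. A single read was 1.45 CPM (counts per 1000000 mouse-gene reads) in replicate 1 and 1.23 CPM in replicate 2, and a count of 0 allows up to 3 reads, or 4.36 and 3.70 CPM, for counting error only. All 4 markers of adrenal cortex and all 4 of medulla had reads in both libraries, with summed levels of 19356 and 16603 CPM for cortex and 8641 and 6321 CPM for medulla. The 6 hepatocyte markers together stood at 206 CPM in replicate 1 but at 9800 CPM in replicate 2, all 6 with reads in each. The 3 brown fat markers stood at 1424 and 1973 CPM, the 2 of striated muscle at 1168 and 1893 CPM, and the 3 of kidney tubule at 36.3 (1 of them at 0 reads) and 6.17 CPM.

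Promoter windows show how close the paired starts lie. The windows below come from RefSeq (GRCm38.p6, the mm10 coordinates) and run from 250 bases before to 50 bases after a RefSeq start. The first 2, of the most abundant member and of the most uneven pair among members with at least 10 reads, were chosen because both GENCODE starts fall inside the window. Capitals mark the stretch from 1 annotated start to the other, both included.
Ndufb1-ps and Cpsf2, chr12:101975724-101976023, plus strand: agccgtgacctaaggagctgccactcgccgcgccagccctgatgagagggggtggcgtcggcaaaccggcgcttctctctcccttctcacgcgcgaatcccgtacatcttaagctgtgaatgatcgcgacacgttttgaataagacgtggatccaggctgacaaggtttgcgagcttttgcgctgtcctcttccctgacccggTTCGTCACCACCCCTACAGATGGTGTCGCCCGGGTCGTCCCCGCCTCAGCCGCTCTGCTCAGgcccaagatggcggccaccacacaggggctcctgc
0610009L18Rik and Actg1, chr11:120348428-120348727, plus strand: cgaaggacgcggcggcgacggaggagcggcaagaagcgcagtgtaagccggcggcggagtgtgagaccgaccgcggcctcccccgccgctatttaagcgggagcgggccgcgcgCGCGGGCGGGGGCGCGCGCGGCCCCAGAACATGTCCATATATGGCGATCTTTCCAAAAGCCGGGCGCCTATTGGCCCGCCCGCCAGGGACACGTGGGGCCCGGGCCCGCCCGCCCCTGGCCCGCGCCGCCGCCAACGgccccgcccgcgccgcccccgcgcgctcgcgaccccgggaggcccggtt
The starts lay 61 bases apart at Ndufb1-ps and Cpsf2 and 136 bases apart at 0610009L18Rik and Actg1. The start of Ndufb1-ps marked here belongs to its second model, with 52 of its 446 reads; the leading model, described below, has its annotated start inside Cpsf2. The Ndufb1-ps window had 26 CpG sites and the 0610009L18Rik window 53.

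The next 2 windows belong to the members next in abundance, Dio3os and 2810013P06Rik, and their capitals mark matches on either strand to the motifs searched in all windows. These were the TATA box TATAAA, the CCAAT box, the GC box GGGCGG, the ETS-type core CCGGAAGT, the NRF1 motif, the polyadenylation signal AATAAA and the splice donor GTAAGT.
Dio3os, chr12:110278019-110278318, minus strand: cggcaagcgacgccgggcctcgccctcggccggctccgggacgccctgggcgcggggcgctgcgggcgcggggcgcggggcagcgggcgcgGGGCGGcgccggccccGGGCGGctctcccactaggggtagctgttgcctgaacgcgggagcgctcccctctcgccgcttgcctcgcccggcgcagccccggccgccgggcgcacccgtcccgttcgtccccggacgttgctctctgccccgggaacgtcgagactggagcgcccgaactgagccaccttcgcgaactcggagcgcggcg
2810013P06Rik, chr8:123042325-123042624, plus strand: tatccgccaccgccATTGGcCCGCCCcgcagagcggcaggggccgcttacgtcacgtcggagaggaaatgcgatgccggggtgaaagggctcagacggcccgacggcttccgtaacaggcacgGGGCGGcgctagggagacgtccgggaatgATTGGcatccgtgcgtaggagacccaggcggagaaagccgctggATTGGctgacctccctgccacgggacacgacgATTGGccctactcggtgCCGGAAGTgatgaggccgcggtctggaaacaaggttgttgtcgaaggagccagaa
The Dio3os window held GGGCGG at bases 92 and 108, and no other motif of the list. The 2810013P06Rik window held CCAAT in the reverse orientation at bases 15, 153, 197 and 229, GGGCGG at bases 21 and 124, and CCGGAAGT at base 246. The GENCODE start of 2810013P06Rik is at base 142 of its window, so its matches at bases 153, 197, 229 and 246 lie inside its annotated exon. These are matches of letters and not sites of binding.

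A RefSeq window could be matched to 81 of the 92 pairs (88.0%), 74 through the coding gene and 7 through the lncRNA gene alone. A match allowed up to 1000 bases between the RefSeq and the annotated start. In 49 pairs the RefSeq coding start lay within 50 bases of the annotated one, so some windows may not cover the annotated starts. GGGCGG was in 81.5% of the pair windows (66 of 81, 95% Wilson interval 71.7 to 88.4), against 47.6% of 19959 windows of other protein-coding genes and 35.7% of all 32851 windows. CCGGAAGT was in 13.6% (7.76 to 22.7) against 5.28% and 3.89%, and the NRF1 motif in 14.8% (8.68 to 24.1) against 6.57% and 4.603%. TATAAA was in 2.47% (0.68 to 8.56) against 12.2% and 13.6%, whereas CCAAT was in 35.8% (26.2 to 46.7) against 37.9% and 37.4%. AATAAA was in 4.94% of the pair windows against 15.9% of other protein-coding windows, and GTAAGT in 1.23% against 6.41%. The median ratio of observed to expected CpG was 0.89 in pair windows and 0.58 in other protein-coding windows, and the median GC content was 68.0% and 57.0%, a difference that bears on how often GC-rich letters match. No window matched 11 pairs. For pairs whose lncRNA gene had no read, only 79.8% (75 of 94) could be matched, under the 80% needed for a comparison. Their values are therefore a description only. GGGCGG was in 60% of these windows (48.7 to 70.3) and TATAAA in 10.7% (5.50 to 19.7). The interval for CCGGAAGT, 6.44 to 21.3, included the 13.6% of the members. The median CpG ratio was 0.79 and the median GC content 63%, both between the pair windows above and other protein-coding windows. Whether the motif shares are particular to pairs with a read was not tested.

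The annotation holds these genes on 16 chromosomes and unevenly, with 30 on chromosome 12 and 23 each on chromosomes 8 and 10. Members numbered 14 on chromosome 12, 9 on chromosome 8 and 14 on chromosome 10, and on chromosome 9, 2 of 11 annotated genes were found. The share with a read, 48.4% (95% Wilson interval 41.4 to 55.5), stood above that of the most similar lncRNA types, 12.5% of 5854 lincRNA genes (11.6 to 13.3) and 26.7% of 2959 antisense genes (25.1 to 28.3). At 10 reads or more the shares were 12.1% (23 genes, 8.203 to 17.5), 1.55% of lincRNA and 3.08% of antisense genes, and 45.1% of protein-coding genes. These intervals cover counting error only, and since the presence of reads defined the set, the shares carry no test.

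Most members were rare. Of the 92, 22 had 1 read, 47 had 2 to 9 and 23 had at least 10. At the edge of the rule, the 22 members with 1 read were at 1.45 or 1.23 CPM in the library that held it, and the 98 annotated genes outside the rule were at 0. The median mean level was 2.07 CPM, against 1.23 CPM for lincRNA genes with a read, 1.23 CPM for antisense genes and 15.7 CPM for protein-coding genes. Reads of all members together came to 573 in replicate 1 and 625 in replicate 2, or 802 ± 43.5 CPM (SD, n = 2). The most abundant 5 genes took 56.4% of the 1198 reads and the most abundant 15 took 75.5%. In bulk tissue, fewer cells of a type and less RNA per cell cannot be told apart.

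**Figure D1:**
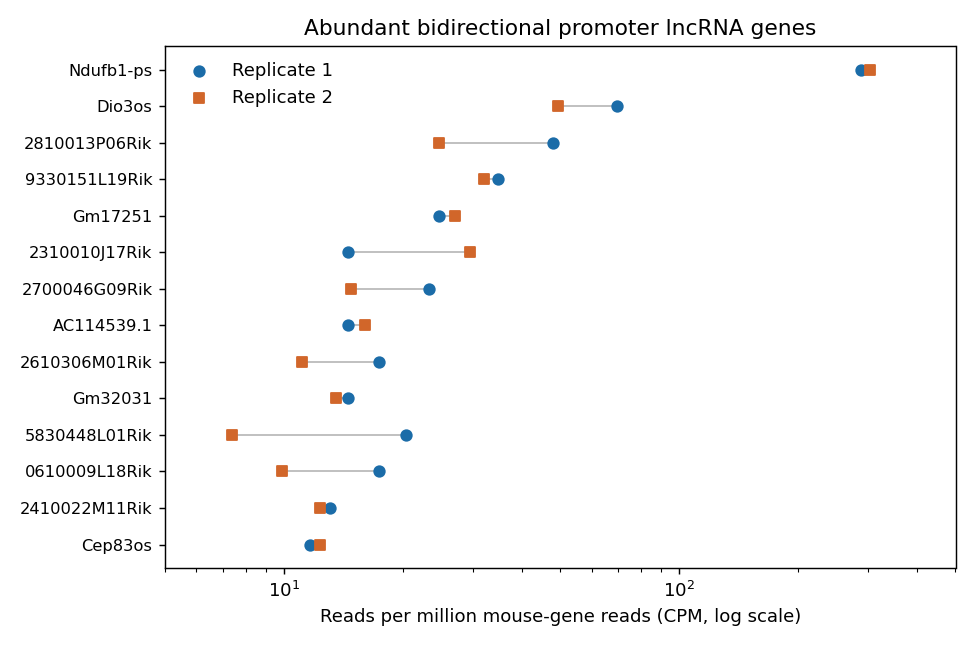
Level of 14 of the 15 most abundant members in each library, in CPM on a log axis, with 1 point per replicate and a line joining the 2. Ndufb1-ps sits at 289 and 305 CPM, above every other gene, and the 12 lowest members shown all lie between 7.40 and 47.9 CPM.

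Ndufb1-ps (ENSMUSG00000113902.1, chromosome 12, 101968090 to 101977068, minus strand, mm10) had 199 reads in replicate 1 and 247 in replicate 2, or 297 ± 11.0 CPM (SD, n = 2), which ranked 564th among all annotated genes. The suffix of its symbol names it a pseudogene of Ndufb1, which encodes a small subunit of mitochondrial complex I. Neither that status nor its annotated noncoding type was tested here, and it held 37.2% of all member reads. Cpsf2, which encodes a subunit of the complex that cleaves and polyadenylates pre-mRNA, starts across the promoter and had 13 and 15 reads. The lncRNA gene therefore had 15.3 times the reads of Cpsf2 in replicate 1 (95% exact interval 8.75 to 29.3) and 16.5 times in replicate 2 (9.79 to 29.9), with no overlap of the 2 genes' levels.

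Of its 446 reads, 426 lay in 2 known models of 3 exons. Ndufb1-ps-203 (861 bases) took 166 and 208 reads, and Ndufb1-ps-201 (511 bases) took 26 and 26. The models share the end of exon 1 and the start of exon 3, and differ at the start of exon 2, where the acceptor of model 203 lies 3 bases upstream of that of model 201 (101969637 against 101969634). The joined exon ends are shown because these 3 bases, in capitals, set the models apart.
Ndufb1-ps-203: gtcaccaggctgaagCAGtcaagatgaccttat
Ndufb1-ps-201: gtcaccaggctgaagtcaagatgaccttat
Among the reads of these models the upstream acceptor was used in 86.5% in replicate 1 (95% Wilson interval 80.9 to 90.6) and 88.9% in replicate 2 (84.2 to 92.3), so the split was alike within counting error. The longest open reading frame was 57 codons in both models, and whether it is translated was not tested. The models also differ in their annotated start, 101976254 in model 203, which lies within Cpsf2, and 101975927 in model 201. The deposited counts name the model and not the ends of each read, so they do not show which start was used. A further 7 and 9 reads shared a shortened chain of 2 exons in both libraries.

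Dio3os (ENSMUSG00000113581.1, chromosome 12, 110275385 to 110278172, minus strand) lies across from Dio3, which encodes the deiodinase that inactivates thyroid hormone, in the imprinted Dlk1 to Dio3 locus. It had 48 and 40 reads, or 59.5 ± 14.4 CPM (SD, n = 2), while Dio3 had 0 and 4. The starts lie 896 bases apart, the widest gap of the 92 pairs. In replicate 1 Dio3os had 16.0 times the 3 reads that a count of 0 allows for Dio3, with an exact lower limit of the ratio of 12.5. In replicate 2 it was 10 times as high as Dio3 (exact interval 3.61 to 38.5). The model of 4 exons, Dio3os-203, took 41 reads in replicate 1 and 20 in replicate 2. In replicate 2 another 10 reads lay in a single-exon genomic model, a class for reads that match no known splice chain and look like unspliced or genomic sequence, and replicate 1 held 0 in that class.

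2810013P06Rik (chromosome 8, 123042466 to 123044602, plus strand) is a gene of 1 exon across from Ankrd11, a chromatin regulator. It had 33 and 20 reads, and Ankrd11 had 18 and 36. The order of this pair turned between the libraries: the lncRNA gene had 1.83 times the reads of Ankrd11 in replicate 1 (exact interval 1.003 to 3.46) and 0.556 times in replicate 2 (0.305 to 0.986). It was the only pair of the 23 with at least 10 member reads whose intervals lay on opposite sides of 1.

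9330151L19Rik (chromosome 12, 69197211 to 69199867, plus strand) had 24 and 26 reads, or 33.5 ± 1.98 CPM (SD, n = 2). The coding gene nearest to its start, Gm49383, had 0 reads in both libraries. The lncRNA gene had 8.00 and 8.67 times the 3 reads that a count of 0 allows, with exact lower limits of the ratio of 6.02 and 6.56. Its exons share 1107 bases with Dnaaf2, an assembly factor of ciliary dynein, on the other strand, whose start lies 1218 bases inside, outside the distance used for pairs. Dnaaf2 had 19 and 13 reads.

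Gm32031, across from the histone chaperone gene Spty2d1, had 10 and 11 reads against 0 and 2. It had 3.33 times the 3 reads that a count of 0 allows for Spty2d1 in replicate 1, and 5.50 times the reads of Spty2d1 in replicate 2 (exact interval 1.20 to 51.1). Together with Ndufb1-ps, Dio3os and 9330151L19Rik it made up the 4 pairs in which the lncRNA gene lay above the coding gene in both libraries by the exact interval, or by its lower limit where the coding gene had 0 reads. Those lower limits were 12.5 for Dio3os in replicate 1, 6.02 and 6.56 for 9330151L19Rik, and 2.24 for Gm32031 in replicate 1. 2610306M01Rik, across from the endocytic kinase gene Aak1, had 12 and 9 reads against 4 and 4, and its intervals included 1 in both libraries (0.909 to 12.8 and 0.628 to 9.999).

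At the other end stood 5 pairs in which the lncRNA gene lay below the coding gene by its interval in both libraries, 4 of which are described here. 0610009L18Rik (chromosome 11, 120348678 to 120351190, plus strand) had 12 and 8 reads, and Actg1, which encodes cytoplasmic gamma actin, had 930 and 674. Actg1 was 77.5-fold higher in replicate 1 (exact interval 44.2 to 151) and 84.2-fold higher in replicate 2 (42.5 to 196). Among the 23 pairs with at least 10 member reads this one was the most uneven, with the same order in both libraries.

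Gm17251 (chromosome 17, 33759992 to 33761870, plus strand) had 17 and 22 reads, and Rab11b, a small GTPase of recycling endosomes, had 273 and 306, 16.1-fold and 13.9-fold more. Its start lies 314 bases inside Rab11b, and 329 bases of its exons lie over coding-gene exons on the other strand. A130014A01Rik had 8 and 3 reads against 71 and 72 for the palmitoyltransferase gene Zdhhc7. 2700046G09Rik had 16 and 12 reads against 36 and 29 for the sphingomyelin synthase gene Sgms1, which was 2.25-fold and 2.42-fold higher.

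5 other genes among the 15 most abundant stood near their coding genes. 2310010J17Rik had 10 and 24 reads, and Picalm, a clathrin assembly gene, had 15 and 15. AC114539.1 had 10 and 13 reads against 28 and 22 for Nfkb2, an NF-kappaB subunit gene, and 5830448L01Rik had 14 and 6 against 5 and 5 for Wapl, which releases cohesin from DNA. 2410022M11Rik had 9 and 10 reads against 8 and 7 for Zmym5, and Cep83os had 8 and 10 against 13 and 12 for the centriole gene Cep83. Of these 5 pairs, AC114539.1 was set apart from its coding gene by its interval in replicate 1 (0.155 to 0.757) and not in replicate 2 (0.273 to 1.23), and the other 4 in neither library.

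A coding gene on the other strand started within 1000 bases of 186 of the 190 annotated genes and of all 92 members, each member with a different one. The starts of 72 pairs lay apart and those of 20 overlapped, and 67 pairs lay at most 300 bases apart without overlap. The median distance was 96 bases (quartiles 17.8 and 162), against 85 bases over all 186 annotated pairs.

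**Figure D2:**
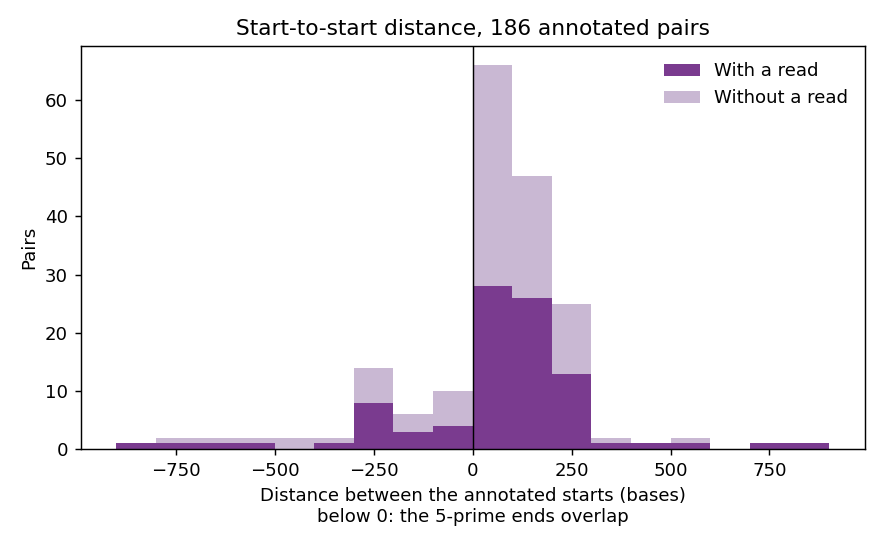
Distance between the annotated starts of each lncRNA gene and its coding gene, in bases, for the 186 annotated pairs, coloured by whether the lncRNA gene had a read. Most pairs with and without a read lie between 0 and 300 bases, and values below 0 are the pairs whose 5-prime ends overlap.

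A long read is meant to span a whole transcript, so CPM values of the genes in a pair were set side by side without division by length, though repeated copies of a molecule and fewer reads from long mRNAs cannot be seen in these counts. Over the 92 pairs the member lay below its coding gene in both libraries in 70 and above it in both in 8. The median log2 ratio of member to coding gene (0.5 CPM added to each) was -3.002, with quartiles of -4.76 and -0.70. It was -3.09 in replicate 1 and -3.08 in replicate 2 over the same 92 pairs. Among the 23 pairs with at least 10 member reads it was -0.47, a subset chosen on the member's own reads, with 12 below in both libraries, 8 above in both and 3 that turned. By the exact interval of the ratio of reads, with its lower limit used against a coding gene at 0 reads, 4 of the 23 lay above, 5 below, 1 on opposite sides, 2 off 1 in 1 library alone and 11 included 1 in both libraries. In the 11 pairs whose member was higher on average, the coding gene's annotated mRNAs had a median length of 4066 bases, and in the 12 others 3103 bases. Across the 23 pairs Spearman's rho between the ratio and the coding mRNA length was 0.36, given as a description. At Cpsf2 and Ndufb1-ps the median annotated lengths were 5732 and 667 bases. The part of transcript length in the ratio was not tested.

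**Figure D3:**
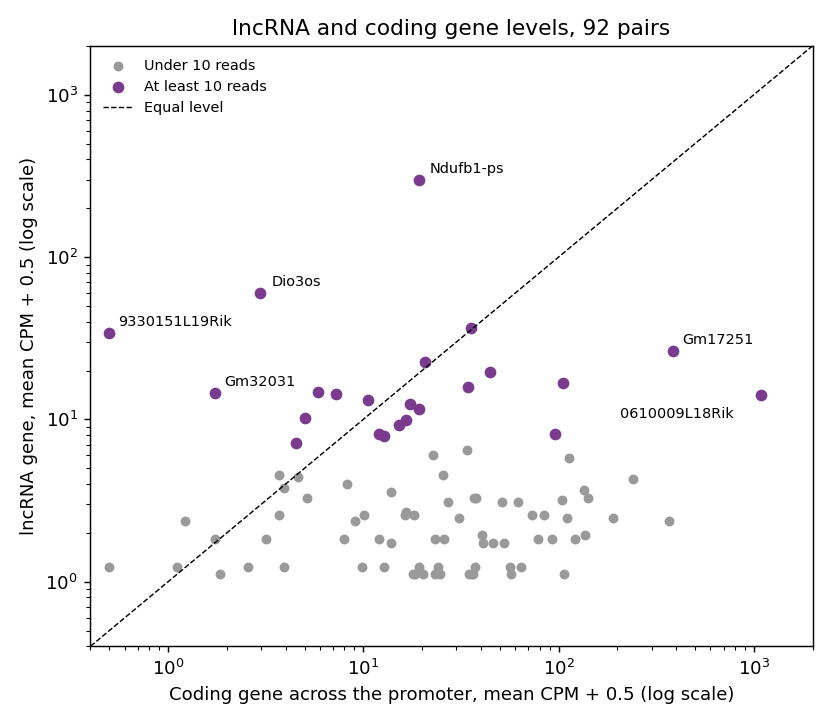
Mean level of each lncRNA gene against its coding gene over the 2 libraries, in CPM with 0.5 added, on log axes, for 92 pairs, with the dashed line at equal level. Members with under 10 reads lie mostly under the line, and 6 of the members described in the text are labelled.

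Among members with reads, the level gave little order with that of the coding gene. Spearman's rho across the 92 pairs was -0.04 on the mean, -0.12 in replicate 1 and 0.01 in replicate 2. Across the 23 pairs with at least 10 member reads it was 0.15. Across all 186 annotated pairs, found or not, it was 0.24. The points of a pair share the library and its depth, and most members rest on a few reads.

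The coding genes of the 92 members had a median of 22.5 CPM, and those of the 94 pairs without a member read had 7.44 CPM, while all annotated protein-coding genes had 4.14 CPM. With the 186 pairs ordered by the coding gene into 4 groups, the lncRNA gene was found in 14 of 47 pairs in the lowest group (29.8%, 95% Wilson interval 18.7 to 44.0), 23 of 46 in the next (50%), 26 of 47 in the third (55.3%) and 29 of 46 in the highest (63.0%, 48.6 to 75.5). The share was higher in each group than in the one below it, with intervals of neighbouring groups that overlapped. Asking for 3 reads, the shares were 14.9%, 39.1%, 27.7% and 37.0%, and the middle groups no longer kept this order. In replicate 2 taken alone they were 19.1%, 50%, 42.6% and 56.5%, and the order was lost there too. The member reads themselves did not climb by group, with 185, 191, 630 and 192 reads from lowest to highest, the third holding Ndufb1-ps.

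**Figure D4:**
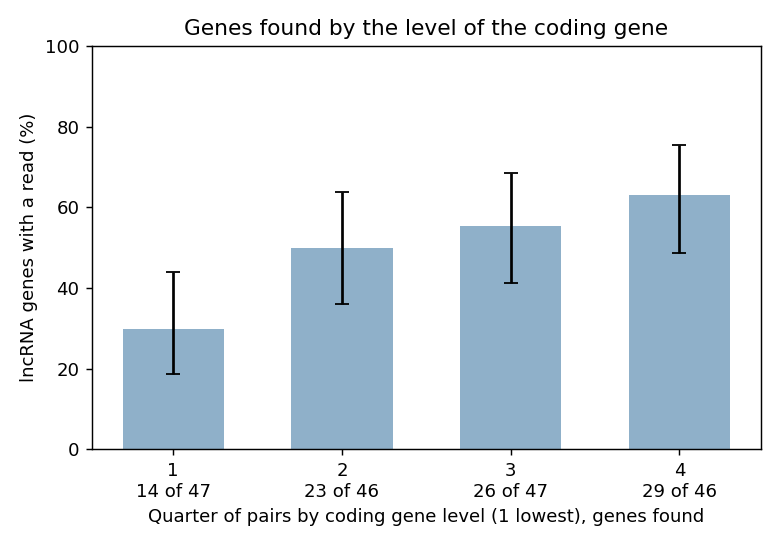
Share of annotated bidirectional promoter lncRNA genes with at least 1 read in 4 groups of pairs ordered by the level of the coding gene, with 95% Wilson intervals as bars. The share goes from 29.8% in the lowest group to 63.0% in the highest.

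No member lay across from a gene of the adrenal lists: 0 of 28 cortex genes and 0 of 17 medulla genes had an annotated gene of this type across the promoter. Among 39 Hox genes, Hoxd1 had one, Haglr, which had 0 reads in both libraries. The whole annotation held 186 such pairs beside 22028 protein-coding genes, so few or none are to be expected in lists of this size. These counts therefore say nothing particular about adrenal genes.

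Reads fell mostly into known models. Of the member reads, 78.4% in replicate 1 (95% Wilson interval 74.8 to 81.5) and 76.8% in replicate 2 (73.3 to 79.9) were in models of the annotation, close to the 77.0% and 73.9% of protein-coding reads. The shares were 55.7% and 51.5% for lincRNA and 38.1% and 32.9% for antisense genes, outside the members' intervals. Much of this rested on Ndufb1-ps: without it, 68.7% and 65.1% of reads were in known models. Genomic models held 12.04% and 11.5% of member reads (18.4% and 18.8% without Ndufb1-ps), against 22.4% and 27.9% for lincRNA and 37.0% and 47.6% for antisense genes. New combinations of known splice sites (NIC), models with a new splice site (NNC) and partial matches of a known chain (ISM) held 2.27%, 3.84% and 3.49% in replicate 1 and 2.40%, 4.00% and 5.28% in replicate 2.

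**Figure D5:**
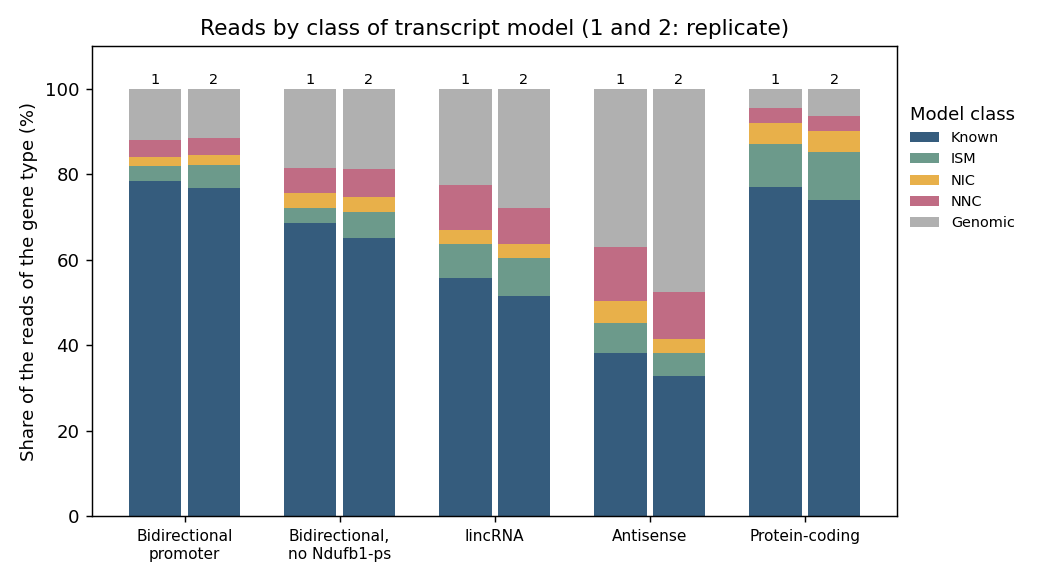
Share of reads in each class of transcript model, in percent, by gene type, with replicate 1 left and replicate 2 right in each pair of bars. Known models hold 78.4% and 76.8% of the members' reads and 38.1% and 32.9% of antisense reads.

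Many members are genes of a single exon. An intron is annotated in 61 of the 92 (66.3%), against 91.9% of lincRNA and 91.0% of antisense genes with a read, and 9 of the 23 members with at least 10 reads have none. Much of this contrast is in the annotation itself. Over all annotated genes, with or without a read, the share with an intron was 73.7% of the 190, 94.6% of lincRNA and 93.7% of antisense genes. Spliced models held 64.0% and 66.1% of the member reads, and 44.9% and 44.2% without Ndufb1-ps, against 51.8% and 50.1% for lincRNA, 49.9% and 42.5% for antisense and 91.7% and 89.2% for protein-coding genes. Among members with an annotated intron, 82.6% of reads were spliced, or 67.1% without Ndufb1-ps. Of the annotated transcripts, 1 per gene, 55.4% of members had AATAAA or ATTAAA in the last 50 bases (95% Wilson interval 45.3 to 65.2), against 52.9% of lincRNA, 50.4% of antisense and 73.9% of protein-coding genes. The median longest open reading frame was 73 codons, against 74 and 70 for the other lncRNA types and 403 for protein-coding genes.

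Members differed in how well the annotation described them. All reads lay in known models in 36 members, and 31 had none there, the largest of these with 6 reads. Of the 23 members with at least 10 reads, 6 had most of their reads outside known models. 9330151L19Rik had 90.0% of its 50 reads there, 28 of them genomic, and 2700046G09Rik had 89.3% of its 28, with 22 genomic. 0610009L18Rik had 70.0% and 4732491K20Rik, across from the kinase gene Map3k4, had 63.6%, and in both the genomic class led. AC114539.1 had 60.9%, with 10 of its 23 reads genomic. 1500026H17Rik, across from Scyl2, had 80.0% of 10 reads outside known models and none genomic: 3 and 4 of them shared 1 partial chain of 2 exons in both libraries. New spliced chains numbered 42 in replicate 1 and 45 in replicate 2, and 15 were in both.

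Whether the authors' counting used strand is not stated in the files or labels, and 36 of the 92 members, 9 of them with at least 10 reads, share bases with coding exons on the other strand. For these, reads of the 2 genes could be confused where they are not spliced. Spliced models held 23 of the 50 reads of 9330151L19Rik (1107 shared bases) and 14 of the 23 of AC114539.1 (531 bases). For Ndufb1-ps (147 bases) they held 445 of 446. The place of 9330151L19Rik among the 4 pairs above their coding gene carries this limit. Of 144 new models over the members, 0 had an intron that the annotation gives to the other strand. New loci on the other strand laid 16 reads over the exons of 10 members (at least 50 shared bases), and new loci on the same strand laid 0.

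Spearman's rho between the libraries was 0.54 over the 92 members and 0.69 over the 23 with at least 10 reads. Of the 92, 58 had reads in both libraries, 14 in replicate 1 alone and 20 in replicate 2 alone, and all 23 with at least 10 reads were in both. Of the 13 members with at least 20 reads, 0 differed between the libraries by Fisher's exact test of a gene's reads against all other mouse reads (8276 genes tested, Benjamini-Hochberg adjusted p under 0.05 and levels at least a factor of 2 apart). Over all genes tested 3.23% were called (267), and the 0 of 13 members stands against that share. At an unadjusted p under 0.05 there were 2 of the 13, against 19.2% of all genes tested, and the lowest adjusted p, of 2810013P06Rik, was 0.143 by the same Fisher's exact test, with a log2 ratio of replicate 2 to replicate 1 of -0.94. The ratio was negative for 9 of the 13 and positive for 4, with a median of -0.46 against -0.10 over all genes tested. The ends of the range were 5830448L01Rik at -1.40 and 2310010J17Rik at 1.00. The 2 ends had coding genes with little change, Wapl at -0.22 and Picalm at -0.23. The part of the hepatocyte RNA of replicate 2 in these ratios was not tested.

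Counting reads of known models alone, 1 of 7 members tested was called, beside 3.65% of all genes tested this way: Dio3os, with 41 and 20 such reads, a log2 ratio of -1.25 and an adjusted p of 0.0164 by Fisher's exact test. With all its reads, 48 and 40, its log2 ratio was -0.49 and its adjusted p by that test 0.404. Below the count needed for the test, 9530018F02Rik, across from the fucosyltransferase gene Fut8 and singled out after its values were seen, had 0 reads in replicate 1 and 9 in replicate 2. Its 11.1 CPM in replicate 2, taken as exact, was 2.55-fold the 4.36 CPM of the 3 reads allowed in replicate 1. Tested among all genes with at least 1 read, it was not called (adjusted p 0.111 by Fisher's exact test). Fut8 itself had 17 and 16 reads.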

How the data were processed

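Per the labels and file headers, the authors sequenced 2 adrenal libraries by long-read RNA sequencing and deposited raw read counts per TALON transcript model on mm10 with GENCODE M21, 1 file per library. For the aligner, the read filters and the tool versions, nothing was given in the sources used here. Coordinates (mm10, counted from 1) and gene types came from the deposited annotations. Counts were summed per gene and divided by all mouse-gene reads, known or new, spike-ins excluded. The coding gene of a member is the protein-coding gene on the other strand with the nearest annotated start, within 1000 bases. Ratios of levels had 0.5 CPM added. Libraries were compared with Fisher's exact test for genes with at least 20 reads, with Benjamini-Hochberg adjustment. On simulated counts with 4-fold changes, the test called 168 of 182 changed genes and 2 unchanged genes. The simulated counts held counting error only, so this check does not cover any other spread between the libraries. Scalings by TMM (edgeR 4.0.16) and DESeq2 1.42.0 size factors were alternatives. SciPy 1.17.1 and pandas 2.3.3 were used. Shares have 95% Wilson intervals, ratios of reads exact binomial ones. Intervals and floors cover counting error only.

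The members and lists were chosen with earlier results of these data known. Named were the 15 members with the highest mean CPM, any called member, the 5 highest and 5 lowest ratios to the coding gene among members with at least 10 reads, up to 10 members with at least 10 reads of which over 50% lay outside known models, members with at least 5 reads whose symbol ends in os, ot or as, and members across from a gene of the tissue lists. 1 pair that this rule takes in is not reported here.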

Additional observations from a re-analysis of the deposited data

How the results depend on the processing

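Of 80 values recomputed under other settings, 45 stayed within the spread between the libraries (or, for counts, within 1.5 times), 35 moved and 0 reversed. Some of the values that stayed could not have moved. Keeping Snhg genes in changed nothing, since none with reads carried this type. For the summed level and the model-class shares, leaving out 1 of 2 libraries always shifts the mean by less than their SD. Other values could hardly have stayed. The 2 library medians of the log2 ratio over the same 92 pairs were nearly equal (SD 0.0059), so almost any change in it counted as moved. The tally is therefore not a measure of how robust the results are. The 92 members fell to 55 with at least 3 reads, 23 with at least 10, 58 with a read in each library and 61 by known models alone. The summed level of 802 CPM was 707 without genomic models and 622 by known models alone. The median member level was 3.08 CPM without replicate 1 and 2.91 CPM without replicate 2. Members were chosen again there as the 78 and 72 genes with a read in the library kept. Genes at 0 in that library drop out by this choice, which raises the median. The median log2 ratio to the coding gene was -0.47 with at least 10 member reads, -3.10 without genomic models and -2.22 by known models alone. With 0.1 and 1 CPM added it was -3.33 and -2.66. With 1 library left out and members chosen again in the same way it was -2.74 to -2.24. The ratio was negative under every setting tried. Spearman's rho was 0.15 with at least 10 reads. The found shares, from the lowest to the highest group of coding genes, were 14.9%, 39.1%, 27.7% and 37.0% at 3 reads, so the order was not kept in the middle groups. Without genomic models they were 19.1%, 41.3% and 56.5% in the first, second and highest groups. With 1 library left out they ranged from 19.1% to 23.4%, from 39.1% to 50%, from 40.4% to 42.6% and from 52.2% to 56.5%. The middle groups also lost their order without replicate 1. Without Ndufb1-ps the mean shares of reads were 66.9% known, 3.46% NIC, 6.25% NNC and 18.6% genomic. The count of members called between the libraries was 0 in 8 of 9 alternatives and 1 by known models alone, with lowest adjusted p-values by Fisher's exact test from 0.0164 to 0.246. The causes of these moves were not tested, apart from fewer reads or genes by construction. No paired analysis was possible because there is 1 group. Depth limits most members: at 1.23 to 1.45 CPM per read, the 69 with under 10 reads cannot be ordered.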
